A study of Columba livia with 18 samples.

Results

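The neuron navigators NAV1, NAV2 and NAV3 were followed through a transcriptome experiment on auditory hair cells of the pigeon Columba livia. Gene models were taken as members where the deposited annotation names them as similar to NAV1, NAV2 or NAV3. This found 7 of 20918 gene models, 4 of NAV2, 2 of NAV3 and 1 of NAV1. The family was chosen because 1 model of NAV2, CLIV_008131, ranked by limma among the smallest unadjusted p-values of models that were lower in cuticulosome positive hair cells, so the comparison of the cell types is given for all 7 models as a description and without a test. The cuticulosome is an iron-rich organelle in the apical part of some avian hair cells. From each of 9 birds aged 1 year, without any treatment or genetic change named in the labels, 30 cuticulosome positive and 30 cuticulosome negative hair cells were picked under the microscope and pooled apart. They came from the basilar papilla, the auditory epithelium, after light trypsin treatment and removal of the lagena. This gave 18 libraries, named here by the pigeon numbers of the labels, in 3 sequencing runs (flow cells) with 3 birds and both libraries of each bird per run. Because each library is a pool of picked cells, fewer cells expressing a gene and less RNA per cell cannot be told apart.

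Neuron navigators are large proteins related to UNC-53 of Caenorhabditis elegans, which is required for the directed outgrowth of axons and the migration of cells in the worm. They bind the growing plus ends of microtubules and carry an ATPase domain of the AAA type near the carboxyl end, and NAV2 and NAV3, but not NAV1, begin with a calponin homology domain of the kind that many actin-binding proteins share. Mammalian NAV2 was found as a gene that retinoic acid induces in neuroblastoma cells, and mice with a weakened Nav2 allele have sensory deficits.

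The 4 models of NAV2 have consecutive identifiers, CLIV_008130 to CLIV_008133, on scaffold 503 of the assembly used by the authors. They lie between E2F8, CSRP3 and ZDHHC13 on the side of the lower identifiers and DBX1, PRMT3 and SLC6A5 on the other side. In the RefSeq annotation of another pigeon assembly (bColLiv1.pat.W.v2) the same genes flank 1 gene named NAV2. The annotation thus divides the place of 1 RefSeq gene among 4 models, and reads of a transcript could be divided among them. Of 13121 gene symbols in the deposited table, 173 (1.32%) had 4 or more models. Only CLIV_008131 among the 4 carries a domain entry in the table, PF00307, the calponin homology domain. The direction of transcription is not given in the sources used here. NAV1 has 1 model, CLIV_009509 on scaffold 176, next to SYT2 and PPP1R12B on one side and to RNPEP and LZTR1 on the other, as in RefSeq. The models of NAV3, CLIV_013861 with an AAA domain entry (PF13173) and CLIV_013862, have the lowest identifiers on scaffold 89 and are followed there by ANKDD1A, SPG21 and CLPX, whereas in RefSeq NAV3 lies between E2F7 and SYT1.

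NAV2 had higher levels than NAV1 and NAV3, which were near 0 in most libraries. FPKM, a fragment count scaled to the length of the gene model and to the fragments of the library that match the annotation, was used as deposited. It puts models of unlike length on a common scale. Whether reads cover a transcript evenly was not examined, which limits the comparison of models that divide the same gene. The mean over 18 libraries was 15.97 ± 16.12 FPKM (SD) for CLIV_008131, 4.67 ± 5.49 for CLIV_008130, 2.97 ± 3.40 for CLIV_008132 and 1.94 ± 2.36 for CLIV_008133. The 3 models of the other navigators had means of 0.189 FPKM (NAV1), 0.323 FPKM (NAV3, CLIV_013861) and 0.286 FPKM (NAV3, CLIV_013862). The 4 models of NAV2 passed the limit of a mean FPKM above 1, which 11393 gene models passed, and they did so in each cell type taken alone. CLIV_008131 lay above 61.1% of the models that passed, CLIV_008130 above 32.1%, CLIV_008132 above 22.3% and CLIV_008133 above 12.8%.

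**Figure D1:**
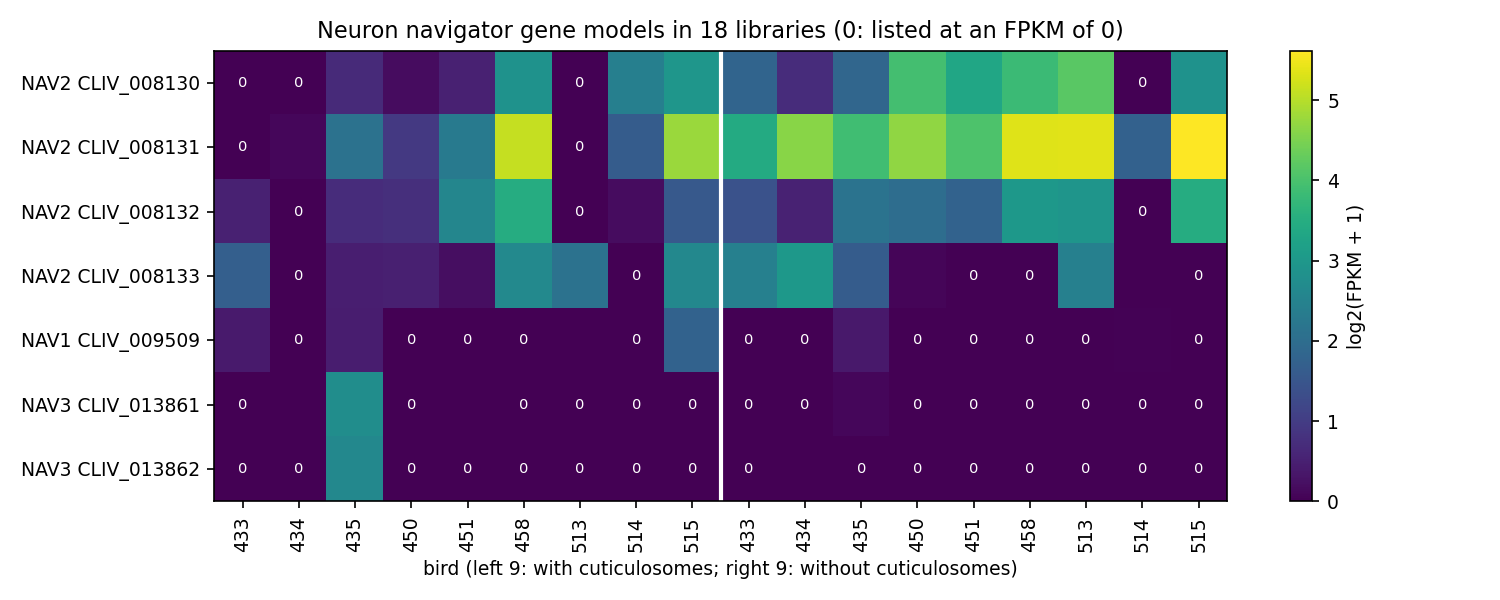
Level of the 7 neuron navigator gene models (rows) in 18 libraries (columns, 9 with cuticulosomes left of the white line and 9 without right of it), as colour on a log2(FPKM + 1) scale, with 0 written where the table lists an FPKM of 0. The rows of NAV1 and NAV3 are dark except for single libraries, and CLIV_008131 is the brightest row, with a mean of 15.97 FPKM.

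Levels were compared between neighbours on the log2(FPKM + 1) scale, with the mean of both libraries of a bird as 1 value. The test was a two-sided exact permutation of the signs of 9 birds, with Benjamini-Hochberg adjustment over 6 neighbouring pairs. Neighbours and their direction were taken from the order of these same means, so the p-values do not test that order independently. The means of CLIV_008131 also include the values by which it was chosen. CLIV_008131 was above CLIV_008130 in 9 of 9 birds, by 1.31 ± 0.68 (SD) on this scale (exact p = 0.00391, the smallest that 9 birds allow, adjusted p = 0.0234). CLIV_008133, the lowest model of NAV2, was above NAV1 in 8 of 9 birds, by 0.93 ± 0.83 (exact p = 0.00781, adjusted p = 0.0234). For the other neighbours the difference was within its spread. CLIV_008130 exceeded CLIV_008132 by 0.28 ± 0.45 (exact test, adjusted p = 0.211) and CLIV_008132 exceeded CLIV_008133 by 0.40 ± 1.26 (exact test, adjusted p = 0.521). NAV1 exceeded CLIV_013861 by 0.0086 and CLIV_013861 exceeded CLIV_013862 by 0.0136 (exact tests, adjusted p = 0.828 and 0.6). In the same exact test within cuticulosome positive libraries alone, CLIV_008131 exceeded CLIV_008130 by 0.82 (adjusted p = 0.188). CLIV_008133 over NAV1 had an adjusted p of 0.0938 there. Within cuticulosome negative libraries alone, where CLIV_008131 is high by the choice of the model, it exceeded CLIV_008130 by 1.80 (exact test, adjusted p = 0.0234). CLIV_008133 over NAV1 had an adjusted p of 0.188 in these libraries. The size of the first difference thus depends on the group that entered the choice.

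The number of reads behind these values can only be approximated, since counts of single libraries are not in the table. The authors' mean signal, read counts divided by size factors and averaged over all libraries, was 208 for CLIV_008131, 72.7 for CLIV_008130, 105 for CLIV_008132 and 248 for CLIV_008133. Divided by the mean FPKM, 1 FPKM corresponded to about 13.0 normalised counts in CLIV_008131, 15.6 in CLIV_008130, 35.4 in CLIV_008132 and 128 in CLIV_008133. The lowest level of the 4, that of CLIV_008133, therefore rests on the largest number of reads. The smallest value above 0 of CLIV_008131, 0.0767 FPKM, came to about 1.001 counts, and that of CLIV_008133, 0.00773 FPKM, to about 0.991 counts. These figures combine the fragments that Cufflinks assigns with the reads that HTSeq counts, which need not be the same, and a listed FPKM of 0 may also be a failed estimate.

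CLIV_008131, the model with the calponin homology domain, ranged from 0 to 33.6 FPKM in cuticulosome positive hair cells with a median of 2.12, and from 2.37 to 48.0 FPKM in cuticulosome negative hair cells with a median of 23.7. The ranges overlapped, but within each of the 9 birds the cuticulosome positive library had the lower value. The size of the difference was uneven. In pigeon 513 the model was listed at 0 with cuticulosomes and at 40.1 FPKM without, about 523 normalised counts, and in pigeon 433 at 0 and 9.80 FPKM. Pigeon 434 had 0.0767 and 23.7 FPKM, and pigeon 450 had 0.920 and 24.7 FPKM. At the other end, pigeon 514 had 2.12 and 2.37 FPKM, and pigeon 458 had 33.6 and 39.3 FPKM, so in these birds both libraries were alike, low in the former and high in the latter. The remaining birds lay between these, pigeon 435 with 3.34 and 13.8 FPKM, pigeon 451 with 3.92 and 15.5 FPKM and pigeon 515 with 26.2 and 48.0 FPKM. The difference on the log2(FPKM + 1) scale was -2.42 ± 1.92 (mean ± SD, n = 9 birds) with a median of -1.77, and it was -3.24, -1.90 and -2.11 in the 3 sequencing runs. With single birds left out it stayed between -2.71 and -2.05. It was -3.58 with a pseudocount of 0.1 in place of 1, which gives low values more weight. A gene model lower in 9 of 9 birds was found 16 times among the 11393 tested (0.14%), and since the model was chosen from this contrast its place among them is no result.

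**Figure D2:**
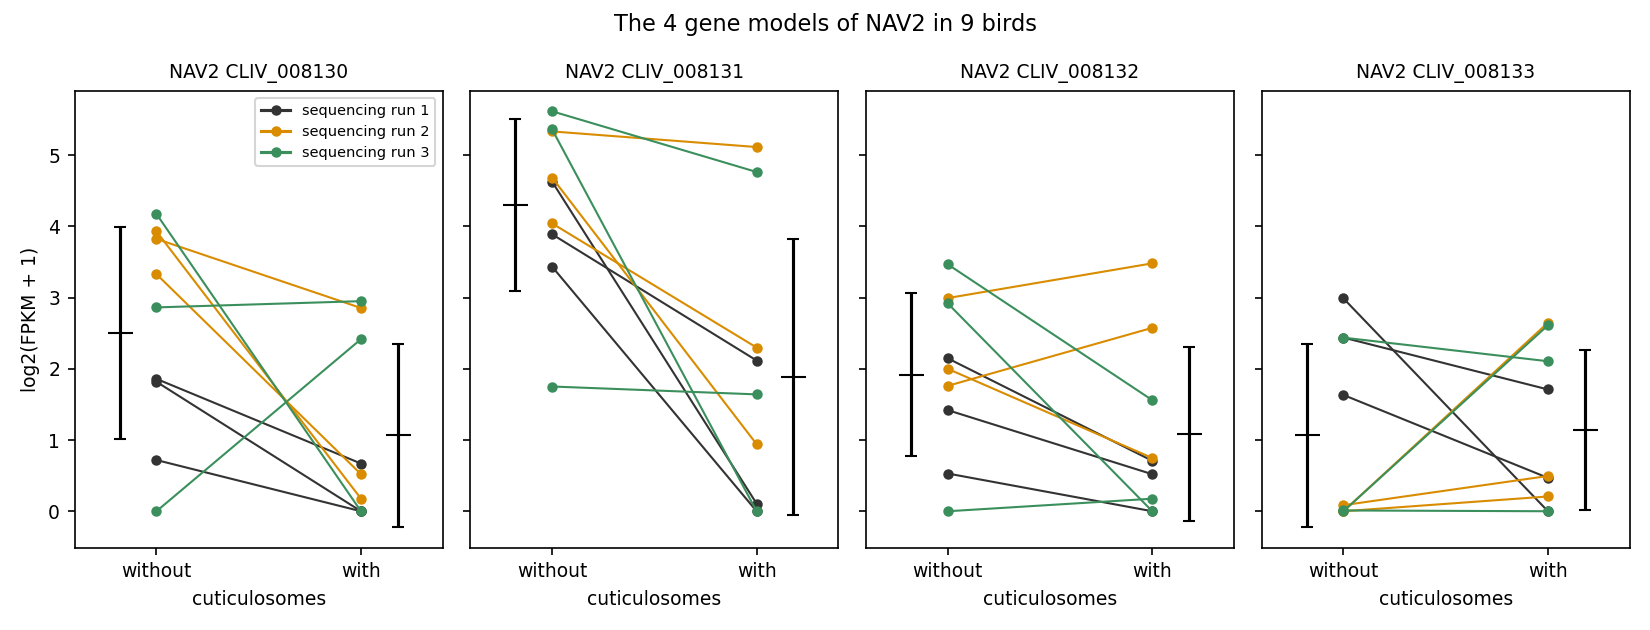
The 4 gene models of NAV2 in 9 birds on a log2(FPKM + 1) axis, each line joining the library without and the library with cuticulosomes of 1 bird, coloured by sequencing run, with the mean and SD of each cell type beside the points. All 9 lines fall for CLIV_008131, 7 of 9 for CLIV_008130 and 6 of 9 for CLIV_008132, while 5 fall and 4 rise for CLIV_008133.

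The neighbouring models CLIV_008130 and CLIV_008132 were lower with cuticulosomes in most birds as well. CLIV_008130 ranged from 0 to 6.73 FPKM with cuticulosomes (median 0.435) and from 0 to 17.0 FPKM without (median 6.27). It was lower in 7 of 9 birds, by -1.44 ± 2.03 on the log2(FPKM + 1) scale, and the exceptions were pigeon 514, with 4.34 and 0 FPKM, and pigeon 515, with 6.73 and 6.27 FPKM. CLIV_008132 ranged from 0 to 10.2 FPKM with cuticulosomes (median 0.634) and from 0 to 10.1 FPKM without (median 2.998). It was lower in 6 of 9 birds, by -0.83 ± 1.20, with pigeons 451, 458 and 514 as the exceptions. By sequencing run its difference was -0.96, 0.02 and -1.55, and it was -1.25 without the second and -0.47 without the third run. The ranges of both cell types overlapped in both models, nearly in full for CLIV_008132 and below 6.73 FPKM for CLIV_008130. Of all models tested, 6.27% were lower in at least 7 birds and 18.1% in at least 6. Both models lie at the place of the same RefSeq gene as CLIV_008131, which was chosen from this contrast. Their direction is therefore not independent of that choice and is given as a description. Both differences stayed below 0 with each bird left out, from -1.92 to -1.09 for CLIV_008130 and from -1.04 to -0.57 for CLIV_008132. The second sequencing run had the largest difference of CLIV_008130, at -2.51, and without this run the difference was -0.90. With a pseudocount of 0.1 the differences were -2.51 for CLIV_008130 and -1.56 for CLIV_008132.

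CLIV_008133 did not follow the other models of NAV2. It ranged from 0 to 5.27 FPKM with cuticulosomes (median 0.409) and from 0 to 6.94 FPKM without (median 0.0608), and was lower with cuticulosomes in 5 birds and higher in 4. The difference was 0.07 ± 1.76 on the log2(FPKM + 1) scale and took either sign when single birds were left out, from -0.25 to 0.46. It was -0.25 without pigeon 458, -0.24 without pigeon 515 and 0.52 with a pseudocount of 0.1. All 3 birds of the first sequencing run were lower, by -1.63 on average, and all 3 of the second run were higher, by 1.09. Pigeons 458 and 515 show how far the models can part within a library. Without cuticulosomes CLIV_008131 had 39.3 and 48.0 FPKM there, the third highest and the highest of all values, while CLIV_008133 was listed at 0 in both libraries. With cuticulosomes the same birds had 5.27 and 5.11 FPKM of CLIV_008133, about 675 and 655 normalised counts, so the model was detected in these birds.

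**Figure D3:**
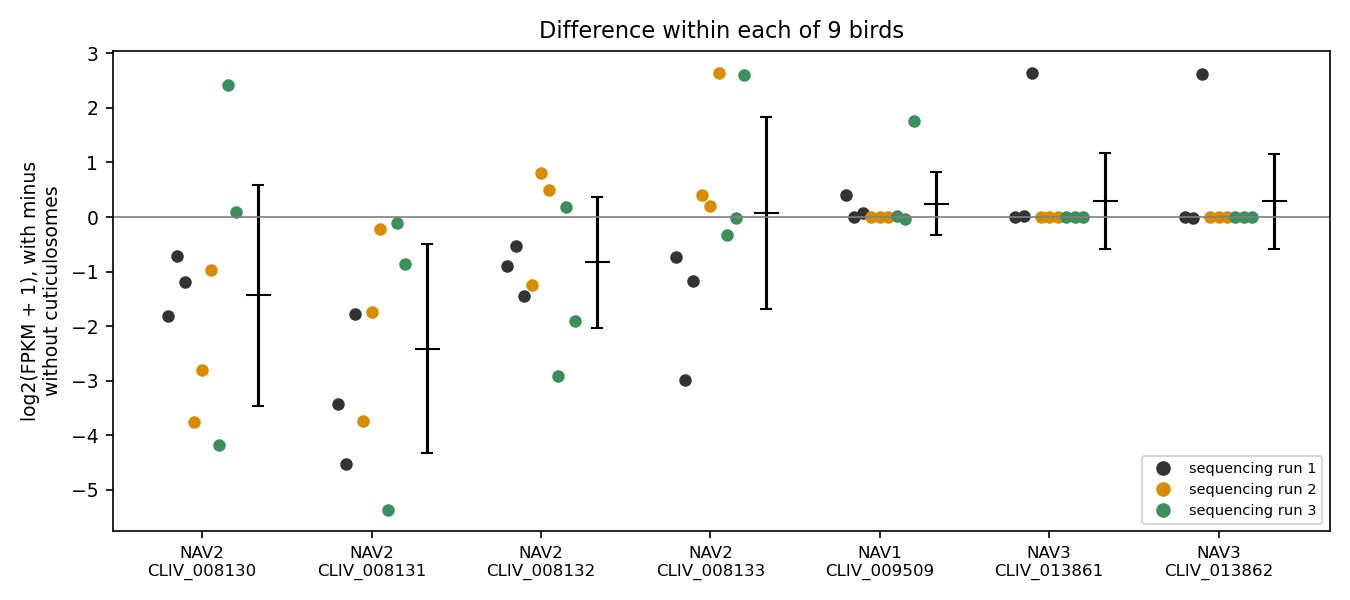
Difference in log2(FPKM + 1) between the library with and the library without cuticulosomes of each bird, for the 7 gene models, coloured by sequencing run, with the mean and SD over 9 birds as a bar. Points of CLIV_008131 lie below 0 throughout, those of CLIV_008133 on both sides with the first run below and the second above 0, and those of NAV1 and NAV3 at or near 0 except in single birds.

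Across all 9 birds the first 3 models of NAV2 varied together. They lie at the place of the same RefSeq gene and reads of a transcript may be divided among them, so they cannot be taken as separate genes. The means of CLIV_008131 also include the values by which it was chosen. Taking the mean log2(FPKM + 1) of both libraries of a bird, CLIV_008131 and CLIV_008132 had a Pearson r of 0.90 (exact permutation p = 0.00122, adjusted p = 0.00506 over 6 pairs of models) and a Spearman rho of 0.93 (exact p = 0.00075, adjusted p = 0.0045) over 9 birds. CLIV_008130 had r = 0.86 with CLIV_008131 (exact p = 0.0034, adjusted p = 0.0068) and rho = 0.78 (exact p = 0.0172, adjusted p = 0.0344), and r = 0.90 with CLIV_008132 (exact p = 0.00169, adjusted p = 0.00506) and rho = 0.87 (exact p = 0.00451, adjusted p = 0.0135). Leaving out the 2 birds farthest from the median of the first model of a pair (pigeons 458 and 515, or 434 and 458) gave r between 0.77 and 0.87. Pigeons 458 and 515 had the highest bird means of each of the 3 models, and stood apart most clearly in CLIV_008131. Without both of them, a setting added after the data had been examined, none of these pairs passed the adjustment over the remaining 7 birds. Pearson r was then 0.56 for CLIV_008130 and CLIV_008131, 0.72 for CLIV_008130 and CLIV_008132 and 0.79 for CLIV_008131 and CLIV_008132 (exact permutation tests, adjusted p = 0.384, 0.222 and 0.222). Spearman rho over these 7 birds was 0.54, 0.71 and 0.86 in the same order (exact permutation tests, adjusted p = 0.471, 0.264 and 0.143). With 7 birds only strong relations can pass the adjustment. Whether the joint variation of the 3 models rests on pigeons 458 and 515 therefore cannot be told, and r stayed above 0 without them. Runs of 3 birds are too small for values within a run, but after the values were centred on the mean of their run r was between 0.89 and 0.95 for these pairs. For CLIV_008133 no relation to the other models was detected, with r between -0.03 and 0.08 (exact p from 0.834 to 0.94) and rho between -0.07 and 0.13 (exact p from 0.744 to 0.948). Without the 2 farthest birds its r was between -0.37 and 0.01. After centring on the run its r became 0.58 with CLIV_008130, 0.56 with CLIV_008132 and 0.37 with CLIV_008131 (permutation over all 9 birds, adjusted p = 0.143, 0.143 and 0.323). These p-values are approximate, since values centred within a run cannot be exchanged freely between runs.

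**Figure D4:**
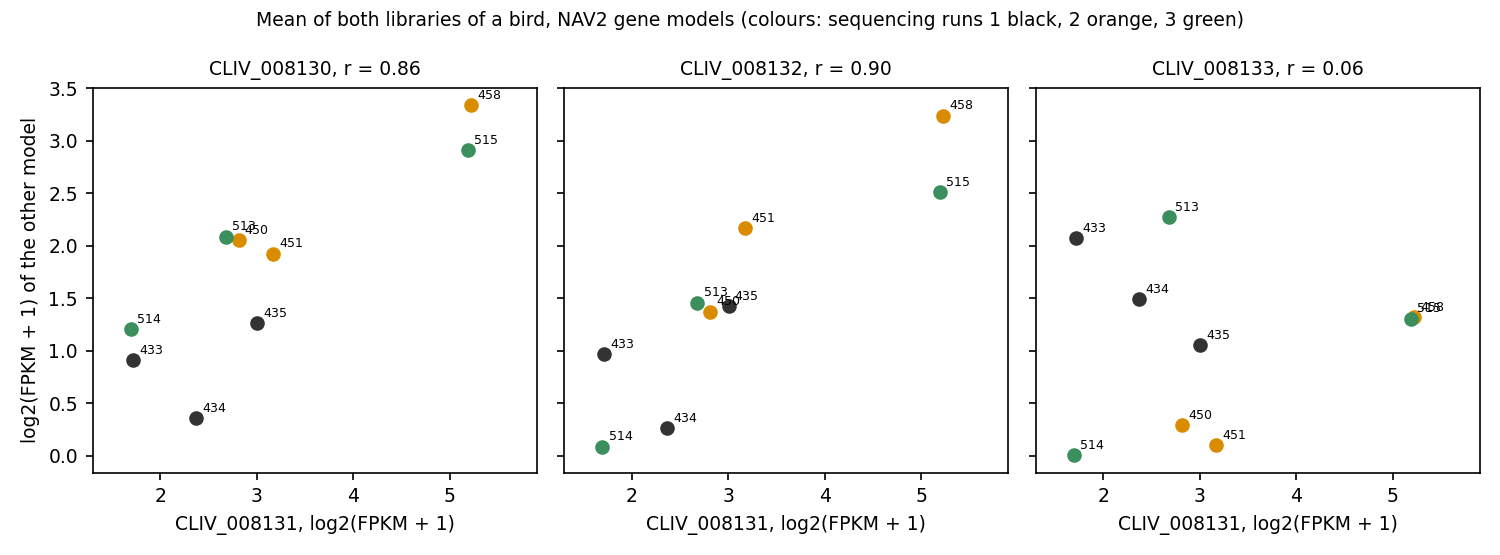
Level of CLIV_008131 (x axis) against each other model of NAV2 (y axis), as the mean log2(FPKM + 1) of both libraries of a bird, 1 point per bird, labelled by pigeon number and coloured by sequencing run. Pigeons 458 and 515 lie at the upper right for CLIV_008130 (r = 0.86, or 0.56 without them) and CLIV_008132 (r = 0.90, or 0.79 without them), set apart mainly along the x axis, and CLIV_008133 (r = 0.06) has no such order.

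CLIV_008131 was also compared with every other gene model tested. By the Pearson correlation of log2(FPKM + 1) over the 18 libraries, given as a description because the libraries are pairs from 9 birds, the 2 models most like CLIV_008131 among 11392 were CLIV_008130 (r = 0.83) and CLIV_008132 (r = 0.80). CLIV_008133 stood at place 1806 (r = 0.21). This correlation includes the difference between the cell types by which CLIV_008131 was chosen. With that difference removed, by centring each model on the mean of each cell type, a setting added after the data had been examined, CLIV_008132 stood at place 1 (r = 0.79), CLIV_008130 at place 2 (r = 0.78) and CLIV_008133 at place 1113 (r = 0.30). Within 1 cell type, where only 9 libraries remain, CLIV_008130 was at place 19 with and 94 without cuticulosomes, and CLIV_008132 at place 54 and 29. Without pigeon 435 the places over all libraries were 1, 2 and 2317 for CLIV_008130, CLIV_008132 and CLIV_008133. Among annotated genes of another name the closest patterns over the 18 libraries, with the difference between the cell types included, were those of TSG101, a subunit of the ESCRT-I complex of endosomal sorting (CLIV_003152, r = 0.77), NAE1, the regulatory subunit of the NEDD8-activating enzyme (CLIV_009980, r = 0.68), C14ORF80, an uncharacterised protein (CLIV_000178, r = 0.68), ADPGK, the ADP-dependent glucokinase (CLIV_017398, r = 0.68), and TMEM164, a transmembrane protein (CLIV_011795, r = 0.68). With that difference removed, likewise a setting added later, their r was 0.64, 0.67, 0.64, 0.50 and 0.57 in this order and their places 29, 16, 28, 167 and 80, so other models then came before them.

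No difference in the levels of NAV2 between the sequencing runs was detected beyond the spread between birds. The mean of CLIV_008130 on the log2(FPKM + 1) scale was 0.84 in the first run, 2.44 in the second and 2.07 in the third (exact permutation test of the F statistic over the 1680 assignments of 9 birds to 3 runs, p = 0.121, adjusted p = 0.464 over 4 models). CLIV_008131 had 2.36, 3.74 and 3.19 (exact p = 0.464), CLIV_008132 had 0.89, 2.26 and 1.35 (exact p = 0.286) and CLIV_008133 had 1.54, 0.57 and 1.19 (exact p = 0.429). With 3 birds in a run only large differences could have been found.

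NAV1 and NAV3 were at or near the limit of detection in most libraries. NAV1 was listed at 0 in 12 of 18 libraries, was above 1 FPKM only with cuticulosomes in pigeon 515 (2.39 FPKM), and was higher with cuticulosomes in 4 birds, lower in 1 and 0 in both libraries of 4 birds. The difference of 0.25 ± 0.58 on the log2(FPKM + 1) scale was 0.06 without pigeon 515, and the mean level was then 0.0636 FPKM. For NAV3, CLIV_013861 was listed at 0 in 14 libraries and CLIV_013862 in 16, and both were above 1 FPKM in the same single library, pigeon 435 with cuticulosomes, at 5.73 and 5.13 FPKM. All other values of NAV3 were at most 0.0782 FPKM. Its differences, 0.30 ± 0.88 and 0.29 ± 0.87, were 0.0026 and -0.0023 without pigeon 435, and the mean levels were then 0.000918 and 0.000809 FPKM. A level of 3 normalised counts corresponded to about 0.0190 FPKM of NAV1 and to 0.0223 and 0.0536 FPKM of the 2 models of NAV3, and 13, 16 and 17 of the 18 libraries were at or below it.

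The library with NAV3 stands apart from the others. Otoferlin (OTOF, model CLIV_019819) and TMC2, which mark hair cells, were above 1 FPKM in all 18 libraries. Another model of OTOF, CLIV_015742, had a mean of 0.0175 FPKM, and no model is named MYO7A, the other defining hair cell gene. The summed FPKM of 14 models of hair cell markers was 1537 in pigeon 435 with cuticulosomes, against 7223 to 20427 in the other 8 libraries of that cell type. Its 6 glial models summed to 2236 FPKM, against 0.02504 to 24.2 in the other 8, and its 19 supporting cell models summed to 3301 FPKM, against 241 to 1429. The part of these cells in the NAV3 values was not tested. Without this bird the difference of CLIV_008131 was -2.50, that of CLIV_008130 -1.47, that of CLIV_008132 -0.75 and that of CLIV_008133 0.23.

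Neuronal markers and depth were examined because navigators are known from neurons. The summed FPKM of 17 models of neuronal markers was 370 to 954 with and 444 to 752 without cuticulosomes, higher with cuticulosomes in 5 of 9 birds. Among the defining genes the neurofilament gene NEFL (1 of 3 models, CLIV_012488) and the tubulin regulator STMN2 were above 1 FPKM in all 18 libraries, ELAVL4 was listed at 0 in 1 library and NEFM in 8. In pigeon 513, where CLIV_008131 differed most, the neuronal sum was 954 with and 681 without cuticulosomes. The hair cell sum of this bird was 10593 FPKM with and 4406 FPKM without cuticulosomes, the latter the lowest of its cell type, where the other 8 libraries had 7387 to 20047 FPKM. The supporting cell list summed to a median of 906 FPKM with and 656 without cuticulosomes, where SOX2 was listed at 0 in 13 and GFAP in 17 of 18 libraries, while 1 of 3 models of TECTA (CLIV_009059), which encodes a protein of the tectorial membrane, was above 1 FPKM in all 18. The red blood cell sum of 3 models was higher in the cuticulosome positive library of 7 of 9 birds, with medians of 2714 FPKM in cuticulosome positive and 943 FPKM in cuticulosome negative libraries. The glial sum of 6 models was lower with cuticulosomes in 6 of 9 birds (pigeons 433, 434, 450, 451, 458 and 513). It was higher in the other 3 (pigeons 435, 514 and 515). Its medians were 14.0 FPKM with and 12.3 FPKM without cuticulosomes, and in pigeon 513 it was 24.2 and 40.5 FPKM. The part of these markers in the NAV2 differences was not tested. Relative depth was estimated from the ratios of FPKM values between libraries in the gene models of lowest mean signal. It ran from 0.592 to 1.52 and was lower with cuticulosomes in 8 of 9 birds, by -0.32 on the log2 scale on average, although 8 of 9 birds had more gene models above 0 there. In pigeon 513 it was 0.840 and 1.09. The estimate rests on a small part of the low values. Of 3143 pairs of low values, 266 lay within 0.05 of equal on the log2 scale after the fit, against 42 in windows of the same total width at 0.5 on either side. The fit follows the most common ratios, so an excess near equal is built in and does not test the estimate. The part of depth in the NAV2 differences was not tested.

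Across all genes, limma, fitted to log2(FPKM + 1) with a term for each bird, called 0 of 11393 models lower and 0 higher at an adjusted p under 0.05, a share of 0% in each direction. At an unadjusted p under 0.05 limma found 229 models lower (2.01%) and 372 higher (3.27%) with cuticulosomes. None of the related genes that follow therefore passed this limma test over all genes. The study's own comparison, by DESeq2 on read counts with birds as blocks, reported genes in both directions after correction for multiple testing. It also reported qPCR for some of them. No navigator is named in the study's list of significant genes. Because limma on log2(FPKM + 1) is a different test, its result does not mean that no gene differs between the cell types.

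Genes related to navigators by theme were examined as 4 lists. Of 28 tested models of proteins that track microtubule plus ends, 18 had a mean difference above 0 and 10 below 0, against 6145 above and 5248 below among all 11393 models tested. An unadjusted p under 0.05 in limma was found for 0 of the 28, beside 2.01% lower and 3.27% higher of all models. The median log2 difference was 0.18, against 0.05 over all models tested. The largest differences were those of 2 models of CLASP1, a stabiliser of microtubule ends (CLIV_012563, 9.08 ± 12.3 FPKM with and 2.26 ± 3.73 without cuticulosomes, and CLIV_012562, 7.47 ± 9.66 and 1.96 ± 3.27, adjusted p of limma = 0.902 for both), each higher in 6 of 9 birds and listed at 0 in 6 of 18 libraries. CLIP4 and STIM1, a calcium sensor of the endoplasmic reticulum that rides on growing microtubules, followed with log2 differences of 0.73 and 0.60. The other tested models of CLASP1 had smaller log2 differences, 0.34 (CLIV_012564) and 0.22 (CLIV_021102). CLIV_012562, CLIV_012563 and CLIV_012564 have consecutive identifiers. The most abundant member, CLASP2, had 98.7 ± 59.2 FPKM with and 111 ± 53.8 without cuticulosomes, and differed by -0.31 ± 0.26 (standard error), or by -0.17 without pigeon 435.

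Partners that have been described for navigators or UNC-53 gave 9 tested models with a median log2 difference of -0.04, or 0.05 without pigeon 435. Of these, 4 had a difference above 0 and 5 below 0. At an unadjusted p under 0.05 in limma there were 0 models, beside 2.01% lower and 3.27% higher of all models. So few models cannot show a departure from these shares. RAC1, a small GTPase of actin dynamics, reached 50.2 ± 59.5 FPKM in cuticulosome positive and 24.2 ± 17.4 FPKM in cuticulosome negative hair cells and was higher in the former in 7 of 9 birds (log2 difference 0.84, standard error 0.40, adjusted p of limma = 0.902). Of 2 tested models of TRIO, the exchange factor for RAC1 that binds NAV1 in mammals, CLIV_013679 had 3.48 ± 3.44 and 5.42 ± 4.91 FPKM and a log2 difference of -0.49, and CLIV_013680 a log2 difference of 0.11. Of 2 models of ABI1, an adaptor of the WAVE complex, CLIV_008661 differed by -0.66, with 0.690 and 2.11 FPKM, and CLIV_017106 by 0.16, with 17.2 and 16.6 FPKM. YWHAE, the epsilon form of the protein family 14-3-3, was the most abundant at 395 ± 95.9 and 420 ± 98.4 FPKM.

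The list of retinoic acid metabolism and reception had 8 tested models with a median log2 difference of 0.15, of which 1 was higher at an unadjusted p under 0.05, beside the 3.27% of all models. This was DHRS3, which returns retinaldehyde to retinol, with 6.91 ± 5.51 FPKM with and 2.76 ± 4.42 without cuticulosomes, higher in 8 of 9 birds (log2 difference 1.36, standard error 0.59, unadjusted p = 0.0354, adjusted p = 0.902 in limma). The retinoic acid receptor RARB had 18.3 ± 10.7 and 10.1 ± 7.26 FPKM and was also higher in 8 of 9 birds (log2 difference 0.97, standard error 0.46, adjusted p of limma = 0.902). Of 2 tested models of RDH10, which oxidises retinol, CLIV_018637, listed at 0 in 13 of 18 libraries, differed by -0.36 and CLIV_018638 by 0.35. CRABP1, which binds retinoic acid in the cytoplasm, was the most abundant gene of the list at 801 ± 750 and 573 ± 244 FPKM, and differed by 0.05, or by 0.31 without pigeon 435.

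Receptors of axon guidance gave 23 tested models with a median log2 difference of 0.07 (0 without pigeon 435), 13 above and 10 below 0 beside the 6145 and 5248 of all models. At an unadjusted p under 0.05 in limma there were 0, beside 2.01% lower and 3.27% higher of all models. Of the semaphorin receptors, PLXNA2 CLIV_004480 and PLXNA1 CLIV_007393 had log2 differences of 1.03 and -0.94. The other tested models of these genes had 0.54 (PLXNA2, CLIV_004479) and 0.0057 (PLXNA1, CLIV_007392). The ephrin receptor EPHA5 had log2 differences of -0.99 (CLIV_014659, lower in 7 of 9 birds) and -0.94 (CLIV_014660, lower in 6, and -0.55 without pigeon 435). The adjusted p of limma was 0.902 for CLIV_004480, CLIV_007393, CLIV_014659 and CLIV_014660. The third tested model of EPHA5, CLIV_014661, had -0.78, and the 3 models have consecutive identifiers, like those of NAV2.

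**Figure D5:**
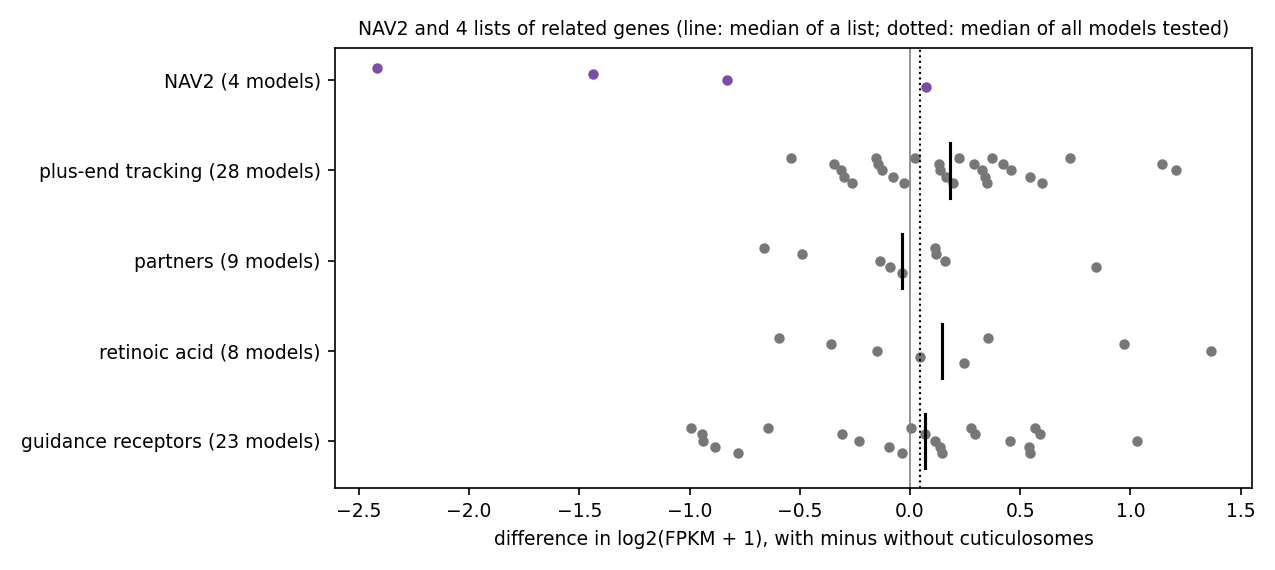
Difference in log2(FPKM + 1) between hair cells with and without cuticulosomes (x axis, mean over 9 birds), 1 point per gene model, for the 4 models of NAV2 and for 4 lists of related genes, with the median of each list as a line and the median of all 11393 models tested (0.05) as a dotted line. The points of each list lie on both sides of 0, with medians from -0.04 to 0.18.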

How the data were processed

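Members and lists were chosen with earlier results of these data known. Per the labels and the study's methods, the authors aligned 50 base single-end reads of full-length amplified cDNA with TopHat 1.4.1 to a pigeon assembly whose build name is not given in the sources used here, estimated FPKM with Cufflinks 1.3.0 including bias correction, counted reads with HTSeq 0.6.1p1 and compared cell types with DESeq2 1.10.1. The deposited table holds FPKM per library, the authors' mean signal (normalised counts), which was used, and 5 columns of their own comparison (fold change, its error, statistic and p-values), which were not used. Reads with more than 1 hit were not kept by the authors, which lowers values where near-identical copies exist. A count test planned for a table of counts was not run, since this table holds none.

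Gene models with a mean FPKM above 1 were compared by limma 3.58.1 in R 4.3.3 on log2(FPKM + 1). The fit had a term for each bird, a variance trend and Benjamini-Hochberg adjustment. A pseudocount of 1 understates changes of low models. Levels, runs and correlations were tested by exact permutation over birds in Python 3.11.15 (scipy 1.17.1, numpy 2.4.6, pandas 2.3.3), and figures drawn with matplotlib 3.10.9. The pairing comes from the pigeon numbers in the labels. Deviations of both libraries of a bird from the means of their cell types correlated at 0.121 to 0.591, and those of different birds at a median of -0.0646. Taking deviations from these means pushes the latter below 0 by construction. Both libraries of a bird also share a sequencing run, so these values cannot tell bird from run. The limma fit, the exact tests and the depth estimate were also run on simulated data. For limma these were normal noise without differences between birds or values listed at 0, unlike the libraries themselves. Named are the navigators, the 5 annotated models most like CLIV_008131, and per list the 4 largest differences and the most abundant model. Some genes that this rule or the marker lists name are not reported here. The replicate is the bird. Depth in reads per library is not in the table, so no counting interval is given. Alternatives are given in the closing section.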

Additional observations from a re-analysis of the deposited data

Results flagged for a closer look

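Of 24 sets of 9 libraries examined (7 navigator models and 5 marker sums in each cell type), 9 held a library whose gap to the nearest other exceeded 0.493 of the range on the log2(value + 1) scale. Chance alone marks about 1 in 20 such sets, and sets that are nearly all 0 are marked easily. Pigeon 435 accounts for 7 of the 9. With cuticulosomes it had 5.73 FPKM of NAV3 CLIV_013861, 5.13 FPKM of NAV3 CLIV_013862, the low hair cell sum of 1537 FPKM and the glial sum of 2236 FPKM. Without cuticulosomes it had 0.298 FPKM of NAV1, 0.0782 FPKM of CLIV_013861 and a red blood cell sum of 37318 FPKM. The other marked values were 2.39 FPKM of NAV1 in pigeon 515 with cuticulosomes and 0.0129 FPKM of CLIV_013862, about 0.724 normalised counts, in pigeon 434 without.

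The difference of NAV2 CLIV_008133 was below 0 in every bird of the first sequencing run, at -1.63 on average, and above 0 in every bird of the second, at 1.09. The difference between the runs was not tested.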

How the results depend on the processing

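The count of 0 models called by limma held under all alternatives run, including no replicate block, where the smallest adjusted p was 0.9999 and 113 models were lower and 182 higher at an unadjusted p under 0.05. With single birds left out the count was 0 each time. With both libraries from each bird, the mean difference of a navigator is the same with and without the pairing by construction. The mean levels of CLIV_013861 and CLIV_013862 fell from 0.323 and 0.286 to 0.000918 and 0.000809 FPKM without pigeon 435, and that of NAV1 from 0.189 to 0.0636 FPKM without pigeon 515. The difference of CLIV_008133 was below 0 without pigeon 458 or 515. A pseudocount of 0.1 gave 0.76 for NAV1, and 0.58 and 0.61 for CLIV_013861 and CLIV_013862. Scaling of each library by its upper quartile or its median ratio moved the median difference of all models by 0.02. In the order of levels, cuticulosome positive libraries alone gave 0.82 for CLIV_008131 over CLIV_008130 and 0.85 for CLIV_008133 over NAV1 (adjusted p = 0.188 and 0.0938, exact tests), -0.0201 for CLIV_008130 over CLIV_008132, -0.0531 for CLIV_008132 over CLIV_008133 and -0.0156 for NAV1 over CLIV_013861, and cuticulosome negative libraries alone gave 1.02 for CLIV_008133 over NAV1 (adjusted p = 0.188). Single birds left out gave -0.10 to 0.14 for NAV1 over CLIV_013861, below 0 without pigeon 433 or 515. The correlation of CLIV_008130 with CLIV_008133 became 0.58 after centring on the run, where CLIV_008132 had 0.56 and CLIV_008131 0.37 with CLIV_008133, and that of CLIV_008131 with CLIV_008133 became -0.25 with a pseudocount of 0.1. Without pigeons 458 and 515, with 7 birds left, r was 0.56 for CLIV_008130 and CLIV_008131, 0.72 for CLIV_008130 and CLIV_008132, 0.79 for CLIV_008131 and CLIV_008132 and -0.20 for CLIV_008131 and CLIV_008133. The lowest adjusted p was then 0.222 in the exact tests. For CLIV_008132 and CLIV_008133 r was -0.0552. The cause was not tested. Without pigeon 435, a setting added later, the median of the guidance receptors was 0 and those of the other lists 0.05 to 0.21. The lowest values, of 3 normalised counts or fewer, cannot separate low expression from none.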
